A study of Mus musculus with 2 samples.

Results

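Collagens and the other genes of the mesenchymal extracellular matrix were followed in mouse bone marrow-derived macrophages by RNA sequencing. The 42 genes were taken by symbol from the 34745 gene identifiers of the deposited table and comprised fibrillar, basement membrane and microfibrillar collagens, proteoglycans, matrix glycoproteins, elastic fibre components, collagen-processing enzymes, IGF binding proteins and mesenchymal surface markers. They were chosen with results of these same libraries known, so their differences are given as descriptions without a test.

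The cells were primary C57BL/6 macrophages differentiated from marrow. One library came from cells transfected with the AclyE14-ASO, an antisense oligonucleotide (ASO) named for Acly, the ATP-citrate lyase gene, and 1 library came from cells transfected with the Control-ASO. Both cultures were also treated with lipopolysaccharide (LPS), the bacterial product that activates macrophages through TLR4. The number of mice, any pooling, the ASO sequences and the LPS dose and duration are not stated in the sources used here, and the labels do not spell out E14. The AclyE14-ASO library held 12751076 gene counts over 14653 detected genes and the Control-ASO library 14215397 counts over 14445 genes. Acly itself had 768 counts with the AclyE14-ASO and 1549 with the Control-ASO, a ratio of 0.553 (exact 95% counting interval 0.506 to 0.603). Each condition was 1 library, so no difference below has a replicate check and variation between cultures cannot be told apart from the treatment. In bulk RNA, a larger number of cells of a type and more RNA per cell cannot be told apart either.

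The extracellular matrix is the protein scaffold that fibroblasts, pericytes and other mesenchymal cells secrete around themselves. Fibrillar collagens are made as procollagen chains, folded into triple helices in the endoplasmic reticulum with the help of the chaperone HSP47, trimmed outside the cell and cross-linked by lysyl oxidases. Macrophages are known mainly for degrading and taking up collagen, but they also secrete some matrix proteins, among them fibronectin and thrombospondin 1.

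Upstream sequence was available for 27 of the 42 genes (RefSeq, GRCm38.p6). The 250 bases before the RefSeq start are shown for Serpinh1, the gene of the collagen chaperone HSP47, for the collagen III gene Col3a1, for Bgn and Aebp1, which had the highest log2 ratios of the list, and for Cyr61, a matricellular gene used as a readout of YAP and TEAD activity. Each is written 5′ to 3′ on the strand of the gene. Capitals mark matches on either strand to TATAAA (the TATA box), CCAAT (the NF-Y motif), GGGCGG (the GC box), GGAATG (the TEAD motif) or TGANTCA (the AP-1 motif), and matches that touch or overlap form 1 run of capitals.
Serpinh1, minus strand, chr7:99353240-99353489: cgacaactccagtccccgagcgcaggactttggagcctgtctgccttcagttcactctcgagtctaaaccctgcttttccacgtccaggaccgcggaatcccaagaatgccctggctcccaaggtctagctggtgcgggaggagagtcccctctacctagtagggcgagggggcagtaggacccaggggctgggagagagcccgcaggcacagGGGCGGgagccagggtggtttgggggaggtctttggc
Col3a1, plus strand, chr1:45311288-45311537: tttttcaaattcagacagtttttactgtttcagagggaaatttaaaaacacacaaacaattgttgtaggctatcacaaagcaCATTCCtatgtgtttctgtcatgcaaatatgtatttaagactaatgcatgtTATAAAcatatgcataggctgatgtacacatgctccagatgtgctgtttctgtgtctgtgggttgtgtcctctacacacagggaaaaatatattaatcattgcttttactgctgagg
Bgn, plus strand, chrX:73483351-73483600: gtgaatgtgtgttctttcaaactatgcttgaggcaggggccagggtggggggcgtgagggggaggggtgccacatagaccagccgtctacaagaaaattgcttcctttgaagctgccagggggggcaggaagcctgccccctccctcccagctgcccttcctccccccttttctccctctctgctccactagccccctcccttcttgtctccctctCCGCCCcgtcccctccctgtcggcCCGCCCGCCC
Aebp1, plus strand, chr11:5861616-5861865: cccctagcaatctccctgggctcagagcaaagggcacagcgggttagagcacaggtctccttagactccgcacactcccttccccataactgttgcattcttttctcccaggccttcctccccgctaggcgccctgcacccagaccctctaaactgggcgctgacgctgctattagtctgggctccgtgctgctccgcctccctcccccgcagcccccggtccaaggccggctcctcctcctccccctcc
Cyr61, minus strand, chr3:145649986-145650235: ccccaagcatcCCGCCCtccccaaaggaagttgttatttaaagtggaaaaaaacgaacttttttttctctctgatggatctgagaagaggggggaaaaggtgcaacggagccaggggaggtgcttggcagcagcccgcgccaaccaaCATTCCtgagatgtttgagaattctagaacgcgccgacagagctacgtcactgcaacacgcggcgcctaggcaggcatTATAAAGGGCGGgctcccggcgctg
These windows differ widely in composition, with 63.6% G and C for Serpinh1, 35.2% for Col3a1, 64.4% for both Bgn and Aebp1 and 54.8% for Cyr61. No match to any of the 5 motifs lies in the Aebp1 window. Counting every window listed for a gene, GGGCGG was found for 16 of the 27 members (59.3%), against 35.4% of the 27025 genes with an entry. CCAAT was found for 6 members (22.2%, against 37.5%), TATAAA for 6 (22.2%, against 14.3%), GGAATG for 6 (22.2%, against 14.4%) and TGANTCA for 1 (3.70%, against 7.82%), Col6a1. A match in these letters is a description of the window and not a site of binding.

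Most of the list was higher in the AclyE14-ASO library. A gene was called higher or lower at 2-fold or more on FPKM + 1 if its FPKM averaged 1 or more, where FPKM is the deposited level scaled by gene length and library size. Of the 42 genes, 30 reached that average, and 25 of these were higher, 1 was lower and 4 lay within 2-fold. Among all 8658 genes that reached it, 3.18% were higher and 1.55% were lower by this rule. At 1.5-fold, 29 members were higher and 1 was lower, where 7.03% and 8.48% of those genes were. Another 10 members were detected below that average, and Eln and Mfap2 had 0 counts in both libraries. Of the 30 members, 9 were below 1 FPKM in the Control-ASO library and were included through the AclyE14-ASO library alone. Of these 9, 7 were higher, and of all 253 genes included in that way 37.5% were. Among the 21 members with 1 FPKM or more in the Control-ASO library, 18 were higher and 1 was lower, while 2.10% and 1.71% of all genes selected that way were higher and lower. The median log2 ratio was 1.38 over the 40 detected members and -0.03 over all 15626 detected genes.

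**Figure D1:**
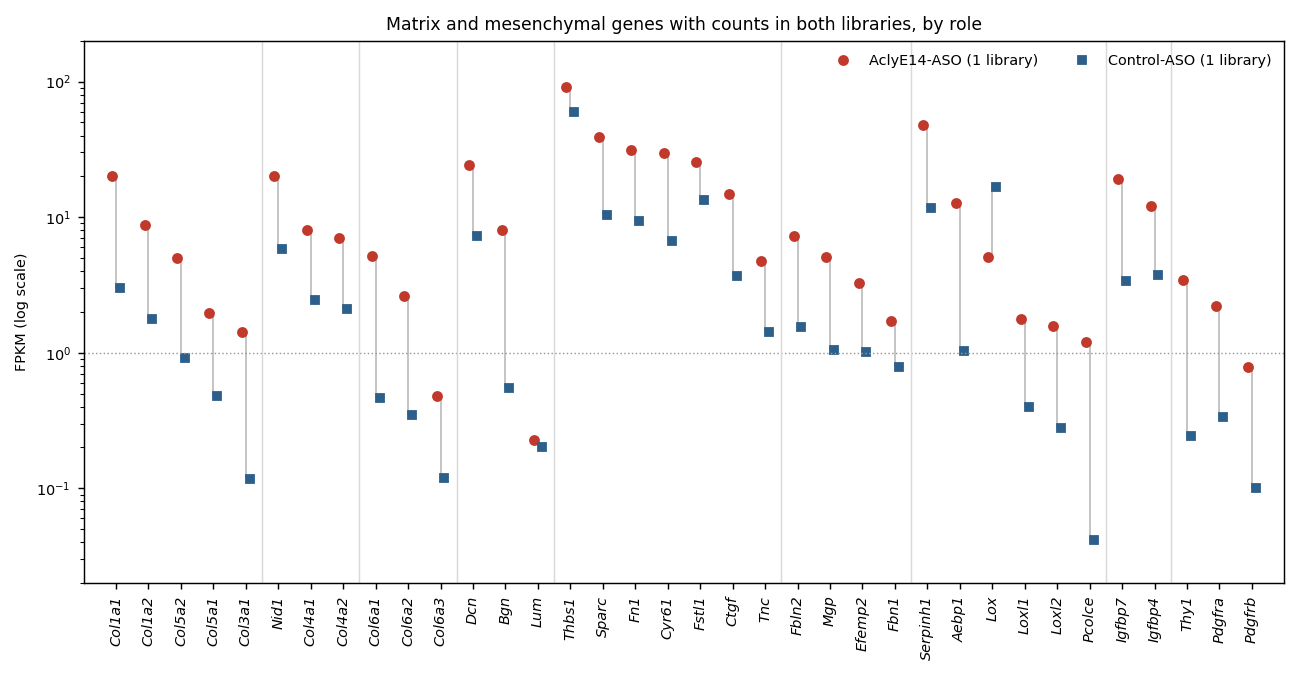
FPKM (log scale) of the 36 members with counts in both libraries, grouped by role, with circles for the AclyE14-ASO library and squares for the Control-ASO library. Lines join both values of a gene and the dotted line marks 1 FPKM. The circle lies above the square for every gene plotted except Lox, and for Lum 0.227 FPKM with the AclyE14-ASO and 0.203 FPKM with the Control-ASO nearly coincide.

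Raw counts need no pseudocount. Each count ratio is taken relative to the library totals and has an exact 95% interval, which covers counting error only and not variation between cultures. PCR copies of a molecule were not told apart, so the interval may be too narrow even for counting error. The interval lay above 1 for 36 of the 40 detected members, below 1 for 1 and across 1 for 3. Among all 15626 detected genes, 19.4% had an interval above 1 and 28.3% one below 1. The interval lay above 2-fold for 32 members, where 3.97% of all detected genes did, or 4.63% of the 11576 genes with 20 or more summed counts. The 35 members with 20 or more summed counts had ratios of 0.303 to 29.3, with a median of 4.46 and quartiles of 3.31 and 6.66. Of these, 32 were higher by 2-fold and 1 was lower, as were 9.31% and 4.73% of the 11576 genes. Summed over the list, 37524 counts (0.294% of the library) belonged to members in the AclyE14-ASO library and 15925 (0.112%) in the Control-ASO library, a ratio of 2.63 (2.58 to 2.68). Thbs1 held the most counts, and without it the summed ratio was 3.22.

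**Figure D2:**
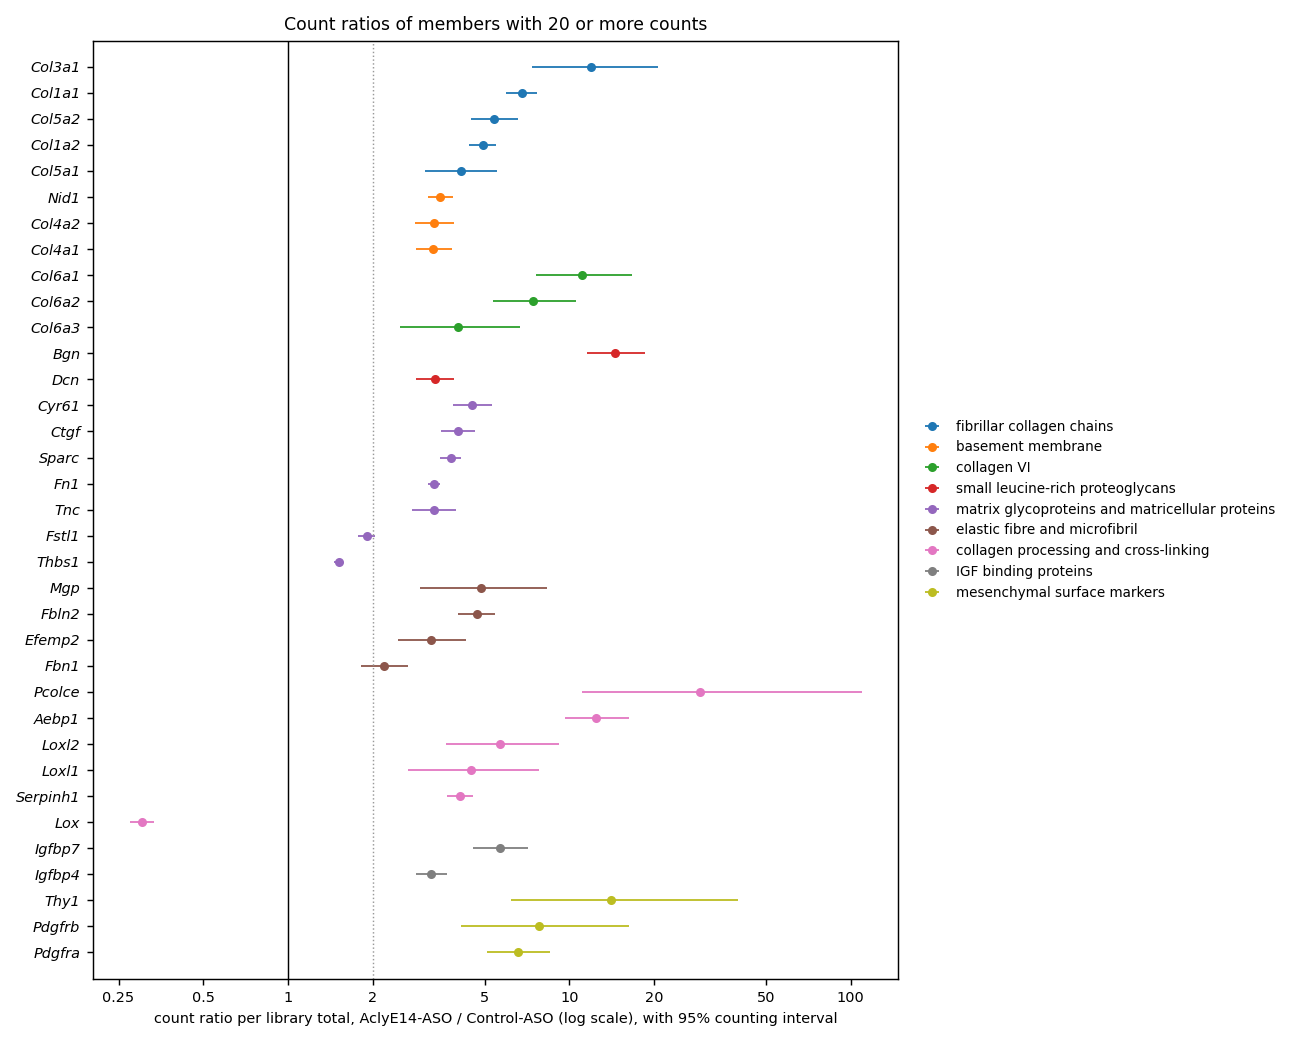
Ratio of counts per library total, AclyE14-ASO over Control-ASO (log scale), for the 35 members with at least 20 counts, coloured by role, with bars for the exact 95% counting interval. The solid line marks no difference and the dotted line 2-fold. Lox lies at 0.303, left of the solid line, Thbs1 and Fstl1 lie left of the dotted line at 1.52 and 1.90, and Pcolce, Bgn and Thy1 lie farthest right.

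All 5 fibrillar collagen genes had more counts in the AclyE14-ASO library. Col1a1 (ENSMUSG00000001506, chromosome 11, 94936224 to 94953042, plus strand, GRCm38), which encodes the α1 chain of collagen I, the main collagen of bone, skin and tendon, had 1790 counts with the AclyE14-ASO and 295 with the Control-ASO. Col1a2 (ENSMUSG00000029661, chromosome 6, 4504814 to 4541544, plus strand), which encodes the α2 chain, had 1808 counts with the AclyE14-ASO and 410 with the Control-ASO. The count ratios were 6.76 (5.98 to 7.68) for Col1a1 and 4.92 (4.41 to 5.49) for Col1a2, and these intervals do not overlap. Col3a1, the gene of a collagen of vessel walls and loose connective tissue, had 193 counts (1.41 FPKM) with the AclyE14-ASO and 18 (0.118 FPKM) with the Control-ASO, a ratio of 11.95 (7.36 to 20.6), and averaged less than 1 FPKM. Col5a2 and Col5a1 encode chains of collagen V, which regulates fibril diameter. Col5a2 was at 4.96 FPKM in the AclyE14-ASO library and 0.919 FPKM in the Control-ASO library, with a count ratio of 5.4 (4.47 to 6.56). Col5a1 was at 1.97 FPKM with the AclyE14-ASO and 0.481 FPKM with the Control-ASO, with a count ratio of 4.11 (3.07 to 5.56). Together the 5 genes held 4651 counts in the AclyE14-ASO library and 915 in the Control-ASO library, a ratio of 5.67 (5.28 to 6.09).

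The deposited FPKM values change the apparent order of the collagen chains. Col1a1 was at 20.2 FPKM and Col1a2 at 8.75 FPKM in the AclyE14-ASO library, although their counts were nearly equal, and at 2.99 and 1.78 FPKM in the Control-ASO library. FPKM and counts together imply that the authors divided Col1a2 by 16209 nt and Col1a1 by 6934 nt, whereas the longest coding transcripts in GENCODE M21 are 5348 nt and 5930 nt. As CPM, the count scaled to the library total, per kilobase of the longest coding transcript, Col1a2 was at 26.5 and Col1a1 at 23.7 in the AclyE14-ASO library. On that scale Col1a2 was at 5.39 and Col1a1 at 3.50 in the Control-ASO library. The level of Col1a1 relative to Col1a2 was thus 0.893 with the AclyE14-ASO and 0.649 with the Control-ASO. The count ratio of 1 gene between the libraries does not depend on the length used. Its log2 ratio on FPKM + 1, and whether it averages 1 FPKM, do depend on that length.

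The 3 basement membrane genes of the list, Col4a1, Col4a2 and Nid1, had smaller ratios than the fibrillar collagens, and these were close to one another. Col4a1 and Col4a2, whose products form the collagen IV network, start head to head on chromosome 8 with annotated first exons that overlap by 22 nt. Col4a1 was at 8.04 FPKM in the AclyE14-ASO library and 2.44 FPKM in the Control-ASO library, and Col4a2 at 7.0 FPKM with the AclyE14-ASO and 2.11 FPKM with the Control-ASO. Their ratios, 3.29 (2.84 to 3.82) and 3.32 (2.83 to 3.90), were nearly equal. Nid1, which encodes the laminin and collagen IV linker nidogen 1, was at 20.2 FPKM with the AclyE14-ASO and 5.78 FPKM with the Control-ASO, with a count ratio of 3.49 (3.15 to 3.86). The interval of the 3 genes' summed counts, 3.16 to 3.66 around a ratio of 3.40, lies below that of the fibrillar collagens. Basement membrane genes outside the list, named after their values were seen, ranged more widely. Count ratios were 0.636 (0.575 to 0.703) for Agrn, 1.38 (1.26 to 1.52) for Lamc1, 6.29 (4.68 to 8.59) for Lamb1 and 6.43 (5.37 to 7.74) for Hspg2.

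The collagen VI genes, whose products form beaded microfilaments around cells, were all below 1 FPKM in the Control-ASO library. Col6a1 had 298 counts (5.16 FPKM) with the AclyE14-ASO and 30 (0.466 FPKM) with the Control-ASO. Col6a2 had 280 counts (2.60 FPKM) with the AclyE14-ASO and 42 (0.35 FPKM) with the Control-ASO, and Col6a3 had 83 counts with the AclyE14-ASO and 23 counts with the Control-ASO. The ratios were 11.1 (7.60 to 16.7), 7.43 (5.36 to 10.5) and 4.02 (2.51 to 6.69). The intervals of Col6a1 and Col6a2, which lie on the same strand of chromosome 10 with 85161 nt between them, overlap, and that of Col6a3, on chromosome 1, lies below that of Col6a1.

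The small leucine-rich proteoglycans, which bind collagen fibrils, differed among themselves. Bgn (ENSMUSG00000031375, chromosome X, 73483602 to 73495933, plus strand), the biglycan gene, had 992 counts with the AclyE14-ASO and 76 with the Control-ASO, and was at 8.05 FPKM with the AclyE14-ASO and 0.553 FPKM with the Control-ASO. The ratio was 14.6 (11.5 to 18.6). Dcn, the decorin gene, was at 24.3 FPKM in the AclyE14-ASO library and 7.29 FPKM in the Control-ASO library, a ratio of 3.33 (2.85 to 3.90). Lum, the lumican gene and a neighbour of Dcn on chromosome 10, had 6 counts in each library. Its interval, 0.298 to 4.17, spans 1, so a difference was not detectable at this depth.

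Among matrix glycoproteins and matricellular proteins, Thbs1 and Fstl1 had the smallest ratios. Thbs1, the thrombospondin 1 gene, was at 90.9 FPKM with the AclyE14-ASO and 60.0 FPKM with the Control-ASO (count ratio 1.52, 1.46 to 1.57). Fstl1, which encodes a secreted follistatin-like glycoprotein, was at 25.5 FPKM with the AclyE14-ASO and 13.4 FPKM with the Control-ASO (1.90, 1.77 to 2.05). Both lay within 2-fold on FPKM + 1. Fn1, the fibronectin gene, had 7148 counts (31.0 FPKM) with the AclyE14-ASO and 2410 (9.38 FPKM) with the Control-ASO, a ratio of 3.31 (3.16 to 3.46). Sparc, the gene of a collagen-binding matricellular protein, had 2207 counts (39.1 FPKM) with the AclyE14-ASO and 650 (10.3 FPKM) with the Control-ASO, a ratio of 3.79 (3.47 to 4.14).

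The CCN family genes and Tnc were also higher. Ctgf and Cyr61 (Ccn2 and Ccn1 in current nomenclature), genes of secreted matricellular proteins, were at 14.8 and 29.9 FPKM in the AclyE14-ASO library, against 3.68 and 6.62 FPKM in the Control-ASO library. The ratios were 4.02 (3.49 to 4.64) and 4.52 (3.85 to 5.32). Tnc, which encodes tenascin C, a glycoprotein of wounds and developing tissue, was at 4.71 FPKM with the AclyE14-ASO and 1.43 FPKM with the Control-ASO, with a count ratio of 3.30 (2.75 to 3.97). Thbs2 and Postn, genes of thrombospondin 2 and periostin, were at the edge of detection, with 13 and 5 counts in the AclyE14-ASO library and 0 in the Control-ASO library. The lower limit of the exact interval of the ratio was 3.40 for Thbs2 and 1.02 for Postn.

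Elastic fibre and microfibril genes were incompletely represented. Fbln2, the fibulin 2 gene, was at 7.26 FPKM with the AclyE14-ASO and 1.55 FPKM with the Control-ASO (count ratio 4.68, 4.03 to 5.46). Mgp, which encodes the calcification inhibitor matrix Gla protein, was at 5.12 FPKM with the AclyE14-ASO and 1.06 FPKM with the Control-ASO (4.85, 2.96 to 8.33). Fbn1, the fibrillin 1 gene, was at 1.72 FPKM with the AclyE14-ASO and 0.785 FPKM with the Control-ASO, within 2-fold on FPKM + 1, with a count ratio of 2.20 (1.81 to 2.67). Efemp2, which encodes fibulin 4, had 206 counts (3.29 FPKM) with the AclyE14-ASO and 71 (1.02 FPKM) with the Control-ASO, a ratio of 3.23 (2.46 to 4.30). Its exons share 173 nt with Mus81 on the opposite strand, and the sources used here do not say whether strand was used in counting. The summed counts of Efemp2 and Mus81 had a ratio of 1.70 (1.41 to 2.05), where Mus81 itself had 87 counts with the AclyE14-ASO and 121 with the Control-ASO. Eln, the gene of elastin itself, and Mfap2 had 0 counts in both libraries, which allows up to 0.235 CPM in the AclyE14-ASO library and 0.211 CPM in the Control-ASO library. Mfap5, which like Mfap2 encodes a microfibril-associated glycoprotein, had 4 counts with the AclyE14-ASO and 0 counts with the Control-ASO, and the counting interval of its ratio spans 1.

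Genes for collagen processing and cross-linking held both the highest and the lowest ratios of the list. Serpinh1, which encodes HSP47, the collagen-specific chaperone, was at 47.9 FPKM in the AclyE14-ASO library and 11.7 FPKM in the Control-ASO library (ratio 4.09, 3.67 to 4.56). Aebp1 (ENSMUSG00000020473, chromosome 11, 5861947 to 5872088, plus strand), whose long product ACLP is a secreted collagen-binding protein, was at 12.8 FPKM with the AclyE14-ASO and 1.03 FPKM with the Control-ASO, with a count ratio of 12.4 (9.64 to 16.3). Its log2 ratio of 2.76 exceeded that of 99.9% of expressed genes. Pcolce, the enhancer of procollagen C-proteinase, had 105 counts with the AclyE14-ASO and 4 counts with the Control-ASO, a ratio of 29.3 with a wide interval (11.1 to 109). Its exons share 112 nt with Fbxo24 on the same strand and 112 nt with Gm36266 on the opposite strand. Summed with each of these in turn, the ratio was 29.5 (11.2 to 110) and 19.5 (8.67 to 54.4).

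Lox was the exception. Lox (ENSMUSG00000024529, chromosome 18, 52516067 to 52529867, minus strand), which encodes lysyl oxidase, the enzyme that starts the cross-linking of collagen and elastin, had 481 counts in the AclyE14-ASO library and 1769 in the Control-ASO library. It was at 5.06 FPKM with the AclyE14-ASO and 16.7 FPKM with the Control-ASO, with a count ratio of 0.303 (0.273 to 0.335). Its paralogs Loxl1 and Loxl2 had ratios above 1, and Loxl1 lay within 2-fold on FPKM + 1. Loxl1 had 76 counts (1.79 FPKM) with the AclyE14-ASO and 19 (0.40 FPKM) with the Control-ASO, a ratio of 4.46 (2.67 to 7.81). Loxl2 had 122 counts with the AclyE14-ASO and 24 with the Control-ASO, a ratio of 5.67 (3.64 to 9.18). Per kilobase of the longest coding transcript, Lox had rank 19 of the 42 members with the AclyE14-ASO and rank 2, after Thbs1, with the Control-ASO. Of all expressed genes, 0.335% had a lower log2 ratio than Lox.

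The IGF binding proteins, secreted carriers that sequester insulin-like growth factors, were split by detection. Igfbp7 was at 19.3 FPKM with the AclyE14-ASO and 3.41 FPKM with the Control-ASO, and Igfbp4 at 12.1 FPKM with the AclyE14-ASO and 3.74 FPKM with the Control-ASO. The ratios were 5.66 (4.53 to 7.12) and 3.23 (2.85 to 3.68). Exons of Igfbp7 lie opposite 85 nt of Polr2b, and the summed counts of these genes had a ratio of 1.55 (1.40 to 1.71), where Polr2b itself had 493 counts with the AclyE14-ASO and 608 counts with the Control-ASO. Igfbp5 had 1 count in the AclyE14-ASO library and 0 in the Control-ASO library.

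The surface markers used to define fibroblasts and pericytes were all below 1 FPKM in the Control-ASO library. Thy1, which encodes the GPI-anchored glycoprotein CD90, had 76 counts with the AclyE14-ASO and 6 with the Control-ASO, a ratio of 14.1 (6.20 to 39.7). Pdgfra and Pdgfrb encode the receptors through which platelet-derived growth factors act on fibroblasts and pericytes. Pdgfra had 424 counts with the AclyE14-ASO and 72 with the Control-ASO, a ratio of 6.57 (5.10 to 8.55), and Pdgfrb had 77 counts with the AclyE14-ASO and 11 counts with the Control-ASO, a ratio of 7.80 (4.13 to 16.3). Thy1 was at 3.44 FPKM with the AclyE14-ASO and 0.243 FPKM with the Control-ASO, Pdgfra at 2.22 FPKM with the AclyE14-ASO and 0.338 FPKM with the Control-ASO, and Pdgfrb at 0.786 FPKM with the AclyE14-ASO and 0.101 FPKM with the Control-ASO. Summed over the 3 markers, the ratio of 7.23 (5.77 to 9.14) overlapped that of collagen VI, 7.76 (6.25 to 9.72).

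**Figure D3:**
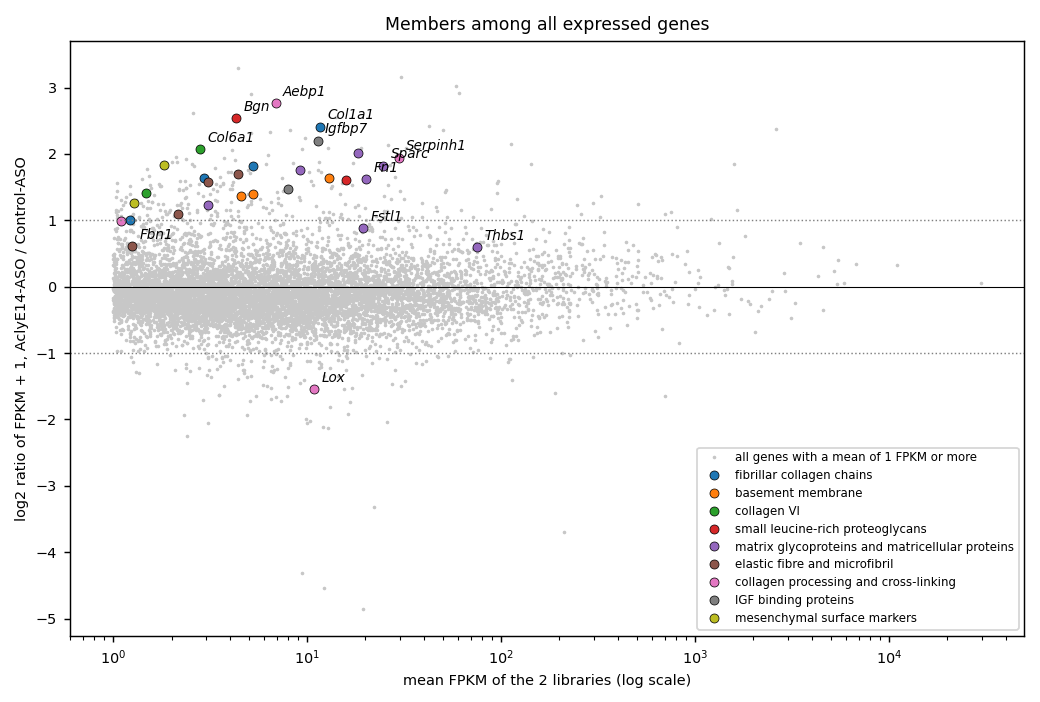
Log2 ratio (AclyE14-ASO over Control-ASO, on FPKM + 1) against the mean FPKM of the 2 libraries (log scale), with the 8658 expressed genes in grey and the 30 members with an average of 1 FPKM or more coloured by role. Dotted lines mark 2-fold. Of the members, 25 lie above the upper dotted line, Lox alone lies below the lower one at -1.55, and Loxl1, Fstl1, Fbn1 and Thbs1 lie between.

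Summed by level in the Control-ASO library, the most abundant members had the smallest ratio, much of it through Thbs1 and Lox. The 9 members of 5 FPKM or more in that library, which include Thbs1, Fn1, Fstl1 and Lox, had a summed count ratio of 2.07 (2.03 to 2.12), and of 3.19 (3.09 to 3.29) without Thbs1 and Lox, which were left out after their values were seen. The 12 members at 1 to 5 FPKM had 9653 counts with the AclyE14-ASO and 2357 with the Control-ASO, a ratio of 4.57 (4.36 to 4.78), and the 21 members below 1 FPKM had 3938 counts with the AclyE14-ASO and 687 counts with the Control-ASO, a ratio of 6.39 (5.89 to 6.94). On the FPKM + 1 scale the order was not the same, with median log2 ratios of 1.62 at 5 FPKM or more, 1.64 at 1 to 5 FPKM and 1.006 among detected members below 1 FPKM. The Control-ASO value enters both the grouping and the ratio, so these values are a description only.

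Outside the list, most collagen genes were scarce. Of 34 other genes for collagen chains, 22 were detected, 0 reached an average of 1 FPKM, and their summed counts were 702 with the AclyE14-ASO and 433 with the Control-ASO. Of the 22 detected, 19 had a log2 ratio above 0 and 3 below 0, where the median of all detected genes was -0.03. The counting interval lay above 1 for 11, below 1 for 2 and above 2-fold for 4. Among all detected genes, 19.4%, 28.3% and 3.97% had such intervals. The basement membrane chain Col4a5 had 92 counts with the AclyE14-ASO and 17 counts with the Control-ASO and Col16a1 47 counts with the AclyE14-ASO and 4 counts with the Control-ASO, and the 2 chains with an interval below 1 were Col5a3 and Col23a1. Col5a3 had 29 counts with the AclyE14-ASO and 70 counts with the Control-ASO and Col23a1 53 counts with the AclyE14-ASO and 99 counts with the Control-ASO. The cartilage collagen gene Col2a1 had 0 counts in both. The collagen genes in this comparison were named after their values were seen.

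General collagen biosynthesis enzymes expressed at 1 FPKM or more mostly lay within 2-fold, while several low ones were higher. Of 30 listed genes, 15 reached an average of 1 FPKM, and 4 of these were higher, 0 lower and 11 between. Of all expressed genes, 3.18% were higher and 1.55% lower. The median log2 ratio of the 15 was 0.14, against -0.13 for all expressed genes. The higher genes were Bmp1, the procollagen C-proteinase (6.51 FPKM with the AclyE14-ASO and 1.72 FPKM with the Control-ASO), P3h4 (4.44 FPKM with the AclyE14-ASO and 1.05 FPKM with the Control-ASO), the collagen chaperone Fkbp10 (4.78 FPKM with the AclyE14-ASO and 1.45 FPKM with the Control-ASO) and Creb3l1, a transcription factor of procollagen genes in osteoblasts (7.38 FPKM with the AclyE14-ASO and 2.57 FPKM with the Control-ASO). The lysyl hydroxylase gene Plod1 was at 5.87 FPKM with the AclyE14-ASO and 7.05 FPKM with the Control-ASO, Mia3, whose product TANGO1 exports procollagen, at 4.85 FPKM with the AclyE14-ASO and 5.86 FPKM with the Control-ASO, and the abundant Ppib at 177 FPKM with the AclyE14-ASO and 173 FPKM with the Control-ASO. Over all 28 detected genes of the list, 22 had a log2 ratio above 0, where the median of all detected genes was -0.03. The counting interval lay above 2-fold for 9, against 3.97% of all detected genes, and 5 of the 9 averaged less than 1 FPKM. These 5, named after their values were seen, were P4ha3 (28 counts with the AclyE14-ASO and 0 with the Control-ASO), Adamts14 (46 counts with the AclyE14-ASO and 4 with the Control-ASO), Loxl3 (60 counts with the AclyE14-ASO and 11 with the Control-ASO), Adamts2 (54 counts with the AclyE14-ASO and 10 with the Control-ASO) and Plod2 (117 counts with the AclyE14-ASO and 42 with the Control-ASO).

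Other matrix glycoproteins and proteoglycans were more often higher than lower. Of 46 listed genes, 13 reached an average of 1 FPKM, with 5 higher, 1 lower and 7 between and a median log2 ratio of 0.89. Of all expressed genes, 3.18% were higher and 1.55% lower. Of the 13, 5 were below 1 FPKM in the Control-ASO library and were included through the AclyE14-ASO library alone. Of these 5, 4 were higher, and of all genes included in that way 37.5% were. Over all 38 detected genes, 31 had a log2 ratio above 0 and 7 below 0, where the median of all detected genes was -0.03. The counting interval lay above 2-fold for 15 and below 1 for 4, against 3.97% and 28.3% of all detected genes. Ltbp2, a latent TGF-β binding protein family gene, was at 4.33 FPKM with the AclyE14-ASO and 0.408 FPKM with the Control-ASO, Hspg2, the perlecan gene, at 3.81 FPKM with the AclyE14-ASO and 0.593 FPKM with the Control-ASO, and Ecm1 at 24.95 FPKM with the AclyE14-ASO and 10.3 FPKM with the Control-ASO. Tgfbi was lower, at 2.31 FPKM with the AclyE14-ASO and 7.14 FPKM with the Control-ASO, and Spp1, the osteopontin gene abundant in macrophages, was at 695 FPKM with the AclyE14-ASO and 773 FPKM with the Control-ASO. Among the low genes, named after their values were seen, the laminin chain genes Lama4 and Lamb2 had 92 and 26 counts with the AclyE14-ASO, against 2 and 1 with the Control-ASO, and Fmod and Efemp1 had 21 and 17 counts with the AclyE14-ASO, against 0 with the Control-ASO.

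Receptors for collagen and fibronectin mostly lay within 2-fold. Of 19 listed genes, 11 reached an average of 1 FPKM, and 1 was higher by 2-fold, 0 lower and 10 between. Of all expressed genes, 3.18% were higher and 1.55% lower. The higher gene, below 1 FPKM in the Control-ASO library and so also included through the AclyE14-ASO library alone, was the collagen receptor tyrosine kinase Ddr1 (2.38 FPKM with the AclyE14-ASO and 0.594 FPKM with the Control-ASO). The fibronectin receptor chain Itga5 was at 88.2 FPKM with the AclyE14-ASO and 155 FPKM with the Control-ASO, and Itgb3 at 1.10 FPKM with the AclyE14-ASO and 2.44 FPKM with the Control-ASO. Sdc4 was at 191 FPKM with the AclyE14-ASO and 96.2 FPKM with the Control-ASO. Over all 17 detected genes, the counting interval lay above 1 for 9, below 1 for 5 and above 2-fold for 4, of which 3 averaged less than 1 FPKM. Among all detected genes, the shares were 19.4% above 1, 28.3% below 1 and 3.97% above 2-fold.

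**Figure D4:**
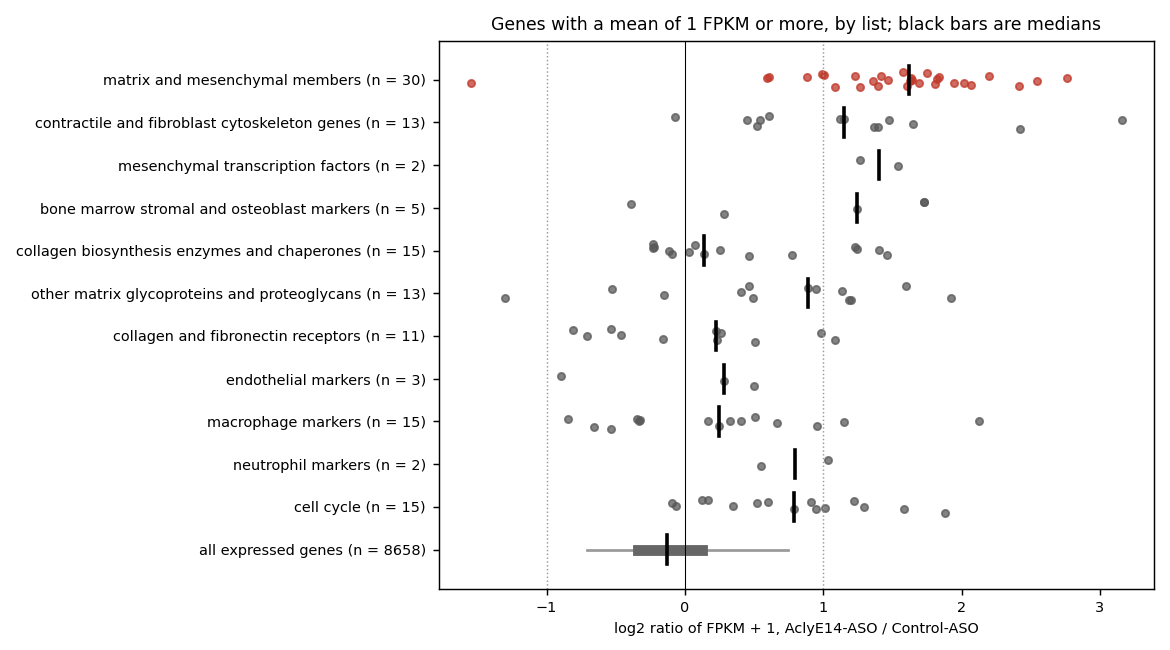
Log2 ratios (AclyE14-ASO over Control-ASO, on FPKM + 1) of single genes with an average of 1 FPKM or more, for the members and for 10 other lists, with black bars for medians. The last line gives all expressed genes, with a thick bar for the middle 50% and a thin bar from the 5th to the 95th percentile. The members have a median of 1.62, against -0.13 for all expressed genes. The next highest medians are those of mesenchymal transcription factors (1.405, 2 genes), bone marrow stromal and osteoblast markers (1.24, 5 genes) and contractile genes (1.15, 13 genes).

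Part of the other mesenchymal genes was also higher in the AclyE14-ASO library. Of 14 contractile and fibroblast cytoskeleton genes, 13 reached an average of 1 FPKM and 8 were higher by 2-fold, 0 lower and 5 between. One of the 8 was below 1 FPKM in the Control-ASO library. Of all expressed genes, 3.18% were higher and 1.55% lower. The counting interval lay above 1 for 12 of the 14 genes, below 1 for 1 and above 2-fold for 8. Among all detected genes, 19.4%, 28.3% and 3.97% had such intervals. S100a4 was at 55.4 FPKM with the AclyE14-ASO and 5.31 FPKM with the Control-ASO, Tagln at 71.9 FPKM with the AclyE14-ASO and 12.6 FPKM with the Control-ASO and Acta2, smooth muscle actin, at 43.7 FPKM with the AclyE14-ASO and 13.3 FPKM with the Control-ASO, while the intermediate filament gene Vim was at 291 FPKM with the AclyE14-ASO and 306 FPKM with the Control-ASO and Pdpn, abundant in both libraries, at 770 FPKM with the AclyE14-ASO and 564 FPKM with the Control-ASO. Mesenchymal transcription factor genes were low, with 11 of 17 detected. They summed to 38.6 CPM with the AclyE14-ASO and 11.5 CPM with the Control-ASO, a ratio of 3.37 (2.81 to 4.04). Zeb1 held the most counts, 223 with the AclyE14-ASO and 132 with the Control-ASO. The others, in a sum chosen after that value was seen, had 269 and 31 counts, a ratio of 9.67 (6.66 to 14.5). The counting interval lay above 1 for 8 of the 11 detected genes, below 1 for 0 and above 2-fold for 4. Prrx1 had 96 counts with the AclyE14-ASO and 5 counts with the Control-ASO, Snai1 63 counts with the AclyE14-ASO and 9 counts with the Control-ASO, and Twist1 42 counts with the AclyE14-ASO and 6 counts with the Control-ASO, while Tcf21, Meox1, Meox2, Osr2, Heyl and Tbx5 had 0 in both. Of 20 bone marrow stromal and osteoblast markers, 14 were detected. Of the 5 that averaged 1 FPKM or more, 3 were higher by 2-fold and 0 lower, against 3.18% and 1.55% of all expressed genes. Together these markers summed to 305 CPM with the AclyE14-ASO and 116 CPM with the Control-ASO. Vcam1 held most of these counts, and, in a sum chosen after its value was seen, the other genes of that list summed to 1596 counts with the AclyE14-ASO and 978 counts with the Control-ASO, a ratio of 1.82 (1.68 to 1.97). The counting interval lay above 1 for 7 of the 14 detected genes, below 1 for 2 and above 2-fold for 6. Such intervals were found for 19.4%, 28.3% and 3.97% of all detected genes. Of the 6, 3 averaged less than 1 FPKM. Angptl4, among the 6, had 186 counts with the AclyE14-ASO and 45 with the Control-ASO. So were Nes (157 counts with the AclyE14-ASO and 21 with the Control-ASO) and Cxcl12 (140 and 42 counts), named after their values were seen. Vcam1, an adhesion molecule gene, was at 18.6 FPKM with the AclyE14-ASO and 4.90 FPKM with the Control-ASO and Grem1 at 6.54 FPKM with the AclyE14-ASO and 1.27 FPKM with the Control-ASO. Kitl, the stem cell factor gene, was lower within 2-fold, at 1.57 FPKM with the AclyE14-ASO and 2.37 FPKM with the Control-ASO (count ratio 0.662, 0.53 to 0.824), Ly6a had 10 counts with the AclyE14-ASO and 26 counts with the Control-ASO, Runx2 had 144 counts in each library, and the osteoblast gene Alpl had 13 counts with the AclyE14-ASO and 0 counts with the Control-ASO. The osteoblast and adipocyte genes Sp7, Bglap, Ibsp, Sost and Adipoq, and Bmp4, were at 0 in both libraries. The part of a different share of mesenchymal cells in these differences was not tested.

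The labelled cell type and other lineages were checked by their markers. Macrophage markers summed to 33951 CPM with the AclyE14-ASO and 26824 CPM with the Control-ASO. Of the 15 that averaged 1 FPKM or more, 13 lay within 2-fold, among them Lyz2 (12276 FPKM with the AclyE14-ASO and 9798 FPKM with the Control-ASO), Adgre1, which encodes F4/80 (67.4 FPKM with the AclyE14-ASO and 84.8 FPKM with the Control-ASO), and Csf1r (50.7 FPKM with the AclyE14-ASO and 64.7 FPKM with the Control-ASO). The lowest log2 ratios among the 15 were those of Cd68 (590 FPKM with the AclyE14-ASO and 1059 FPKM with the Control-ASO) and Aif1 (1.76 FPKM with the AclyE14-ASO and 3.36 FPKM with the Control-ASO). Over all 16 detected macrophage markers, the counting interval lay above 1 for 9, below 1 for 6 and above 2-fold for 2. The shares of all detected genes were 19.4%, 28.3% and 3.97%. Of the 15, 2 were higher by 2-fold and 0 lower, against 3.18% and 1.55% of all expressed genes. Cd14 was higher (2270 FPKM with the AclyE14-ASO and 1020 FPKM with the Control-ASO), as was Itgam (43.2 FPKM with the AclyE14-ASO and 9.12 FPKM with the Control-ASO), a gene whose annotated locus overlaps that of Gm49368 on the same strand, so its reads cannot be assigned with certainty. Endothelial markers summed to 118 CPM with the AclyE14-ASO and 155 CPM with the Control-ASO, with 9 of 16 detected, 6 with a log2 ratio above 0 and 3 below 0. The lower sum came from Kdr, at 675 counts with the AclyE14-ASO and 1518 counts with the Control-ASO, and the other genes, in a sum chosen after that value was seen, had 829 counts with the AclyE14-ASO and 685 counts with the Control-ASO, a ratio of 1.35 (1.22 to 1.495). Cdh5 had 100 counts with the AclyE14-ASO and 62 counts with the Control-ASO, with Pecam1 at 2 counts with the AclyE14-ASO and 4 counts with the Control-ASO, and Tek, Emcn, Erg, Robo4, Cldn5, Plvap and Sox17 at 0 in both. Epithelial markers summed to 3.37 CPM with the AclyE14-ASO and 2.11 CPM with the Control-ASO, with 5 of 9 detected and Epcam, Cdh1, Krt5 and Cldn4 at 0 in both. Neutrophil markers summed to 77.5 CPM with the AclyE14-ASO and 43.0 CPM with the Control-ASO, with 6 of 10 detected and Ly6g, Elane, Camp and S100a9 at 0 in both. Nearly all of that sum came from S100a8 (520 counts with the AclyE14-ASO and 276 with the Control-ASO) and Csf3r (463 counts with the AclyE14-ASO and 327 with the Control-ASO). S100a8 was higher by 2-fold, and the other detected markers had at most 3 counts in a library. Of the 22 cell cycle genes, 15 averaged 1 FPKM or more, and 5 were higher by 2-fold, 0 lower and 10 between. Of all expressed genes, 3.18% were higher and 1.55% lower. Of the 15, 8 were below 1 FPKM in the Control-ASO library and were included through the AclyE14-ASO library alone. All 5 higher genes were among these 8, and of all genes included in that way 37.5% were higher. Over all 22 cell cycle genes, the counting interval lay above 1 for 18, below 1 for 1 and above 2-fold for 10. Such intervals were found for 19.4%, 28.3% and 3.97% of all detected genes. The genes at the ends of that list were Ccnd1 at 200 counts with the AclyE14-ASO and 17 counts with the Control-ASO and Pcna at 64.9 FPKM with the AclyE14-ASO and 69.2 FPKM with the Control-ASO. The part of these differences in the values of the matrix genes was not tested.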

How the data were processed

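The authors deposited 1 table that gives, per the file headers, a raw count and an FPKM value in each of 2 libraries for 34745 Ensembl genes. The submitters' processing notes list mm10, edgeR, HISAT2 and StringTie 1.3.0 with no role. The protocols in the labels name a stranded total RNA kit and an mRNA capture kit. For every gene with more than 20 counts in both libraries, the FPKM worth of 1 count was 1.11 times as large in one library as in the other, which equals the ratio of the count totals, so the deposited FPKM values carry no scaling beyond the library total and 1 fixed length per gene.

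Symbols came from GENCODE M21 (GRCm38, also called mm10). Ctgf and Cyr61 were found as Ccn2 and Ccn1 through RefSeq synonyms. With 1 library per group no test was run. Differences are log2 ratios on FPKM + 1 (AclyE14-ASO over Control-ASO), a scale that understates the change of low genes. Count ratios are relative to the library totals, with exact (Clopper-Pearson) 95% intervals of the conditional binomial distribution. Exons of 14 members overlap another gene of the table, and for 8 of these the other gene had counts. The members and lists were chosen with earlier results of these data known. For each other list, up to 3 genes with the highest and 2 with the lowest log2 ratio and the most abundant gene could be named, and markers of other cell types with few or 0 counts. Creb3l1, Adgre1, Csf1r, Ly6a, Runx2, Alpl, Nes, Cxcl12, Zeb1, Agrn, Lamc1, Lamb1, Cdh5 and the other collagen chains were named after their values were seen. Calculations used Python 3.11.15, pandas 2.3.3, SciPy 1.17.1 and, for trimmed mean of M values (TMM) factors, edgeR 4.0.16, and were tested on simulated counts. The alternatives were pseudocounts of 0.1 and 5, centring on the median gene, TMM factors, other filters, limits of 1.5-fold and 4-fold, and count ratios.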

Additional observations from a re-analysis of the deposited data

How the results depend on the processing

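The direction of the list's median and of its summed counts held under all alternatives run. The number of members higher by 2-fold, 25, became 12 with a pseudocount of 5 and 13 at an average of 5 FPKM or more, which only 16 members reach, and 6 at a 4-fold limit. Of all genes, 0.947%, 2.68% and 0.323% were higher under these 3 settings, against 3.18% in the main one. The number of members lay between 18 and 32 under the others, where 0.875% to 9.31% of all genes were higher. The single lower member, Lox, was not lower by 4-fold, so that count became 0. The median log2 ratio of 1.38 was 1.91 with a pseudocount of 0.1, 0.71 with a pseudocount of 5, 1.70 over members averaging 5 FPKM or more, 1.62 over members at 1 FPKM or more in the Control-ASO library, and 2.16 for count ratios. The summed ratio of 2.63 was 2.82 with TMM factors and 3.22 without Thbs1. Centring shifted all expressed genes by 0.13 and TMM factors by 0.09 (log2), and all 26 members called kept their direction and their call under both. With a pseudocount of 5, 13 of the 26 kept their call. No paired analysis was possible because each group has 1 library, and for the same reason no replicate was left out. The depth limits what can be said of Lum, Postn, Mfap5, Igfbp5, Eln and Mfap2, which had at most 6 counts in a library.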
